A study of Mus musculus with 6 samples.

Results

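The genes described here are interferon-stimulated antiviral genes, a list of 47 mouse genes induced by type I interferon. They were taken by name: effectors, sensors and modifiers were listed, and transcription factors, GBP and IRG GTPases and IFITM genes were left out. The rule used no measured value, but the genes were chosen with earlier results of these data known. Of the 47, 46 had a row among the 14481 genes of the count table, and Oas1g was not analysed here. All 46 passed the filter on low counts, as did 14319 genes in all.

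RNA was sequenced from sorted wild-type mouse CD8+ T cells, the cytotoxic lymphocytes of adaptive immunity. Activation lasted 1 day, on plates coated with antibody to CD3e (1 µg/ml), with antibody to CD28 (1 µg/ml) and mouse IL-2 (0.1 µg/ml) in medium with 10% serum, and conditioned medium (CM) was then present for 2 days. The CM came from astrospheres that the labels call pSTAT3- or pSTAT3+, with pSTAT3 standing for STAT3 activated by phosphorylation, and this is the only labelled difference between the groups. Each group, called here STAT3- CM and STAT3+ CM, had 3 libraries taken at day 3. Cells that received no CM were not analysed here, and the labels give neither the number of CM batches nor whether the replicates are different animals or cultures. The p-values therefore measure only the spread between these libraries.

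Type I interferons signal through the receptor IFNAR and the kinases JAK1 and TYK2 to a complex of transcription factors. This complex binds interferon-stimulated response elements in promoters and switches on the genes listed here, whose products sense, block or degrade viral nucleic acid. In T cells the same genes are known to respond to interferons made by other cells, and several also respond to interferon gamma, which activated CD8+ T cells make themselves.

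The promoters of these genes are shown first, because the response element is the known feature that ties them together. RefSeq (GRCm38.p6) gave promoter windows of 300 bases, 250 before and 50 after the start, for 36 of the 47 genes, and 11 had no entry. The windows were searched for the letters GAAANNGAAA and their reverse complement TTTCNNTTTC, which match the core of the response element, and overlapping matches were counted. At least 1 match stood in 19 of the 36 (52.8%), against 3.99% of all 27025 genes in that table. Such a match describes letters in a window and does not show binding. The 7 stretches below are the 200 bases before the start, 5′ to 3′ on the gene's strand, with matches in capitals. They were chosen to show tandem matches, matches close to the start and pairs of near copies.
Ifit1: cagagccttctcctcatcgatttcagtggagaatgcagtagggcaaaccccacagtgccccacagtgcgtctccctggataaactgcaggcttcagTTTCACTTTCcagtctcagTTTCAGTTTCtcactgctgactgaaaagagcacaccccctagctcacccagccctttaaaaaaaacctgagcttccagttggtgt
Ifit3: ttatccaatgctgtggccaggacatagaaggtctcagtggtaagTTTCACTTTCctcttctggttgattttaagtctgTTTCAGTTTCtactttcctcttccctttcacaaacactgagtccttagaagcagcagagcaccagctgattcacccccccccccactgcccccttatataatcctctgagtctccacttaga
Ifit3b: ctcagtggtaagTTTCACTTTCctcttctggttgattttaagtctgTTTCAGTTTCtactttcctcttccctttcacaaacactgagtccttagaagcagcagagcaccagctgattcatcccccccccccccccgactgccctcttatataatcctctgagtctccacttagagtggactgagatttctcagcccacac
Isg15: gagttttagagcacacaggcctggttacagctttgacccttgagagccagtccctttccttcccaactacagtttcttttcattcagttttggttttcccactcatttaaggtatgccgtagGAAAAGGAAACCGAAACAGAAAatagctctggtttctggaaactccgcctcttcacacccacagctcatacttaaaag
Oas1a: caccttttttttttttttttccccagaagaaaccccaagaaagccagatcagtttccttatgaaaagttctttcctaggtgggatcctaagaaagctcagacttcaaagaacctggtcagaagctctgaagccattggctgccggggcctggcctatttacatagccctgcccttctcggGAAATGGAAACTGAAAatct
Ifi206: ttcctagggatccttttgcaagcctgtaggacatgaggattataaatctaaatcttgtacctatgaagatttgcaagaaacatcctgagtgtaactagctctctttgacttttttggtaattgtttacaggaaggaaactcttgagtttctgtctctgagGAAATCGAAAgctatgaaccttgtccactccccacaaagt
Ifi208: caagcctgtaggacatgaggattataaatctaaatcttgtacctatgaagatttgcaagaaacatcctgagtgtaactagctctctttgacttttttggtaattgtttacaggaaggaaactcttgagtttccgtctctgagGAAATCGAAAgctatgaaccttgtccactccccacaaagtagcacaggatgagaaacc
They lie at chr19:34640689-34640888, plus strand (Ifit1), chr19:34583329-34583528, plus strand (Ifit3), chr19:34607757-34607956, plus strand (Ifit3b), chr4:156200819-156201018, minus strand (Isg15), chr5:120907526-120907725, minus strand (Oas1a), chr1:173491319-173491518, minus strand (Ifi206) and chr1:173673465-173673664, plus strand (Ifi208), all in GRCm38.p6. These are positions in the RefSeq table's build, while the authors' processing names GRCm39. The 2 matches of Ifit1 begin 104 and 85 bases before the start. Isg15 has 3 overlapping matches, the first 78 bases before the start, and Oas1a has 2, the first 20 bases before it. Ifit3 and Ifit3b share 94.2% of 274 aligned promoter positions, and Ifi206 and Ifi208 98.9% of 282.

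Read counts were expressed as CPM (scaled to a common library size with TMM factors), and library totals ran from 43346089 to 53630514. Values below are given in the order of replicates 1, 2 and 3, and a log2 fold change is STAT3+ CM minus STAT3- CM with its standard error (SE). None of the 46 genes passed an adjusted p of 0.05 by edgeR's quasi-likelihood test, with adjusted p-values of 0.989 to 0.999. Over all genes edgeR called 0 of 14319 (0% in either direction) and DESeq2 48, of which 0 were among the 46 (DESeq2 called 0.105% of genes higher and 0.23% lower). At an unadjusted p under 0.05 edgeR had 4 of the 46 on the higher side in STAT3+ CM (8.70%, against 1.34% of all genes) and 0 on the lower (2.3% of all genes). Those 4 were Ifit2, Oas2, Oasl2 and Ifi27. In either direction this count was 4 with all libraries (521 of all 14319 genes). It was 20 without STAT3+ CM replicate 3 (1362 of 14411 genes) and 13 without STAT3- CM replicate 1 (340 of 14427). Without STAT3- CM replicate 3 it was 4 (938 of 14408), and without STAT3+ CM replicate 2 it was 2 (294 of 14450). The count was 1 each when STAT3- CM replicate 2 (465 of 14446) or STAT3+ CM replicate 1 (529 of 14441) was left out. The 3 libraries of STAT3+ CM lay above all 3 of STAT3- CM in Ifit2, Oas2 and Lgals3bp, 3 of 46 (6.52%, against 3.78% of all genes), and below them in 0 (4.18% of all genes).

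Most of the log2 fold changes lay above 0. They were positive in 39 of the 46 genes (84.8%, against 50.2% of all genes), with a median of 0.30 (over all genes 0.00076) and a range of -0.46 to 1.13. The 7 on the negative side (49.8% of all genes were negative) were Mx1, Ifih1, Tor3a, Pml, Eif2ak2, Herc6 and Parp14. These counts are descriptions of a list chosen with earlier results of these data known, and the 46 genes are not independent replicates. The size moved both ways with single libraries: the median was 0.19 with 32 positive without STAT3+ CM replicate 1, 0.44 with 41 positive without STAT3- CM replicate 1, and 0.45 with 40 positive without STAT3+ CM replicate 3.

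**Figure D1:**
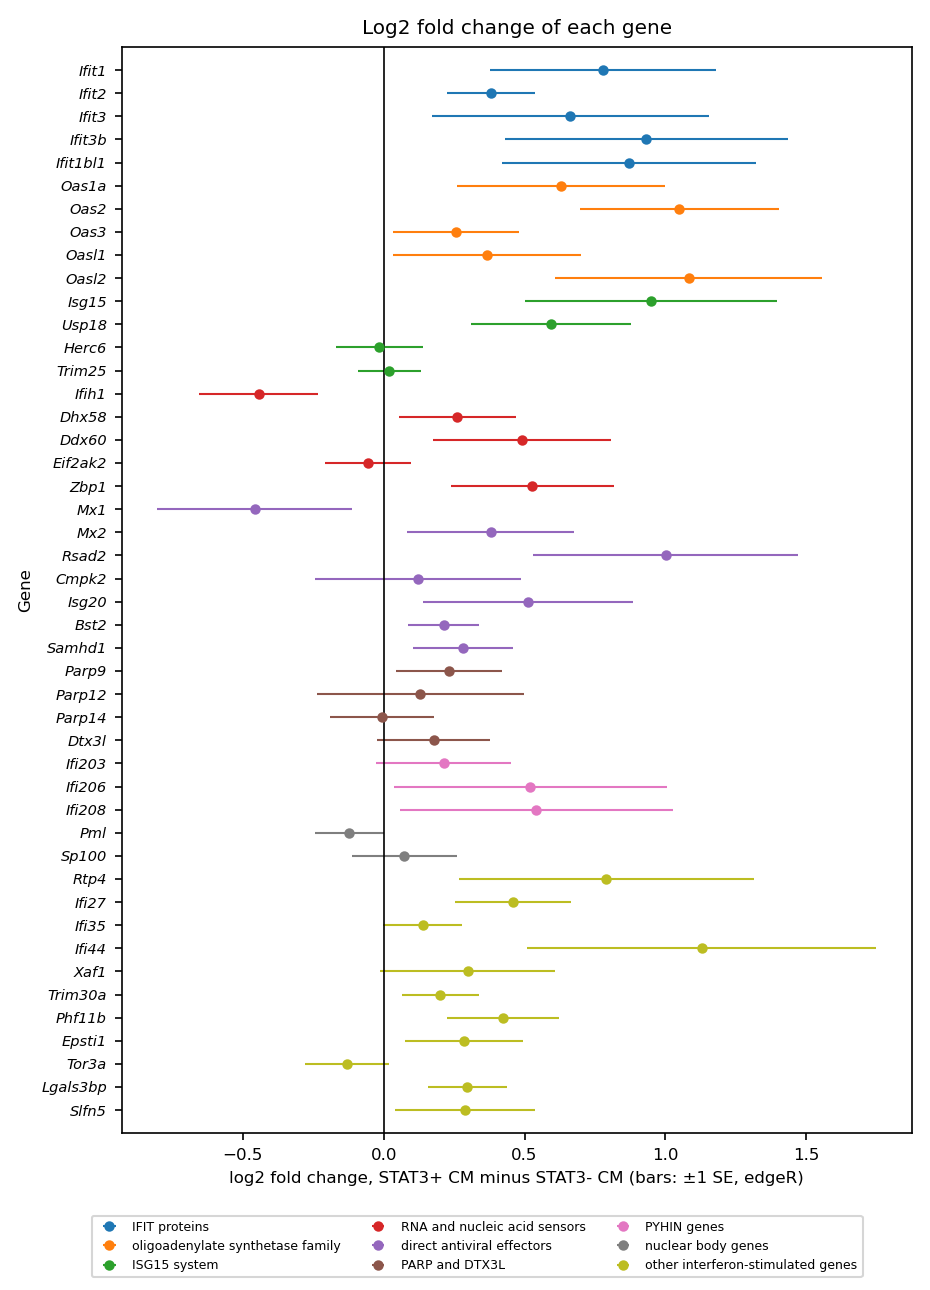
Log2 fold change (STAT3+ CM minus STAT3- CM, horizontal axis) of each of the 46 genes, coloured by role, with bars of 1 SE from edgeR. Of the points 39 lie to the right of 0, and Mx1 and Ifih1 lie farthest to its left.

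Libraries within a group were far apart for these genes. STAT3- CM replicate 3 was the lowest of the 6 libraries in 29 of the 46 genes (against 24.8% of all genes), and STAT3+ CM replicate 1 was the highest in 31 (19.2% of all genes). Both held at once in 21 genes (3.15% of all genes). On log2 CPM, the median of the 46 genes lay 0.17, -0.16 and -0.41 from the gene means over all libraries for STAT3- CM replicates 1 to 3, and 0.54, 0.23 and -0.24 for STAT3+ CM. In both groups these medians fell from replicate 1 to replicate 3, and the labels do not say whether equal numbers belong together. The pooled within-group SD of these library medians was 0.343, while the median log2 fold change was 0.30. STAT3+ CM replicate 3 stood below STAT3- CM replicate 1 in 36 of the 46 genes (51.2% of all genes). STAT3+ CM replicates 1 and 2, for their part, both stood above STAT3- CM replicates 1 and 2 in 26 genes (22.3% of all genes).

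**Figure D2:**
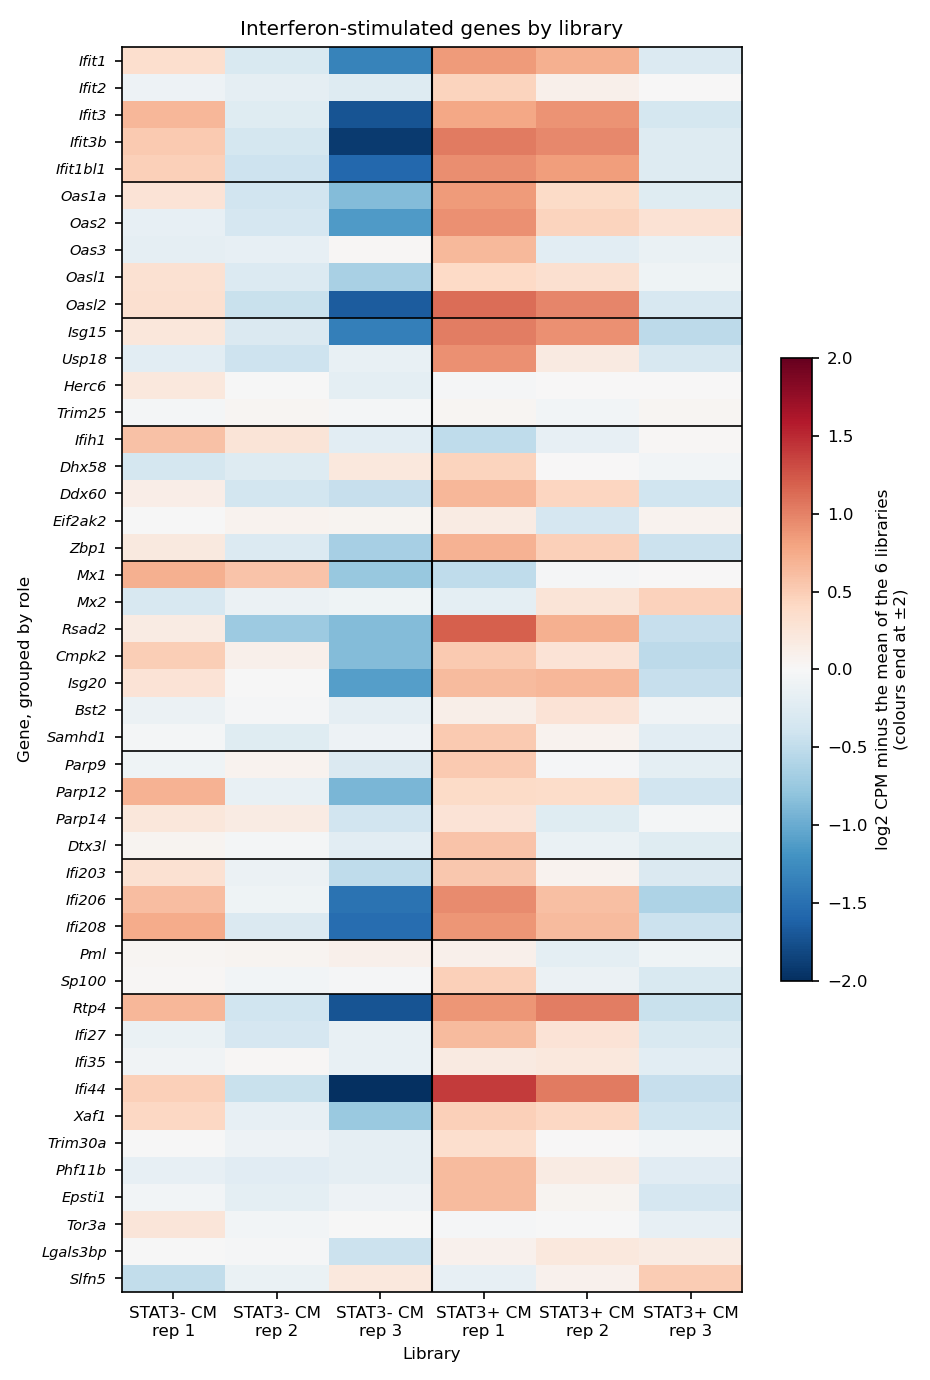
Log2 CPM of each of the 46 genes (rows, grouped by role) in each of the 6 libraries (columns), as the difference from the gene's mean over the libraries. STAT3- CM replicate 3 holds most of the deep blue, in 29 genes as the lowest library, and STAT3+ CM replicate 1 is the highest in 31.

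The IFIT genes, whose products bind foreign RNA ends, were among the most variable. Ifit2 stood at 17.8, 16.8 and 15.9 CPM with STAT3- CM against 26.1, 20.5 and 19.2 CPM with STAT3+ CM (log2 fold change of 0.38 ± 0.16 SE, unadjusted p = 0.0346, adjusted p = 0.989 by edgeR). Its groups did not overlap, although STAT3- CM replicate 1 and STAT3+ CM replicate 3 lay close together. Ifit1 stood at 4.50, 2.90 and 1.41 CPM with STAT3- CM against 6.45, 5.84 and 2.96 CPM with STAT3+ CM (log2 fold change of 0.78 ± 0.40 SE). Ifit1bl1, a relative of Ifit1 and the most abundant of the group in CPM, stood at 26.8, 14.4 and 6.496 CPM with STAT3- CM against 36.7, 34.5 and 16.2 CPM with STAT3+ CM (log2 fold change of 0.87 ± 0.45 SE). In both the groups overlapped, with STAT3+ CM replicate 3 close to STAT3- CM replicate 2. Ifit3 and Ifit3b, near copies, had log2 fold changes of 0.66 and 0.93. Their longest GENCODE transcripts share 97.8% of 1700 aligned bases, so reads may be split between them, and Ifit3 at 10.6, 5.66 and 2.01 CPM with STAT3- CM against 11.4, 12.5 and 5.22 CPM with STAT3+ CM carries that doubt. All 5 IFIT genes had positive values with a median of 0.78, and 4 of the 5 differed at least 2-fold between their highest and lowest library. The 5 lie close together on chromosome 19 in the order of tested genes, and Ifit2 varied 1.64-fold.

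Oligoadenylate synthetases make a second messenger that activates the RNA-cutting enzyme RNase L. All 5 genes of the family had positive values, with a median of 0.63 and 0 past the threshold. Oas2, at a low level, stood at 0.552, 0.49 and 0.281 CPM with STAT3- CM against 1.17, 0.841 and 0.758 CPM with STAT3+ CM (log2 fold change of 1.05 ± 0.35 SE, unadjusted p = 0.0134, adjusted p = 0.989 by edgeR), and its groups did not overlap. Oasl2, a related RNA-sensing protein, stood at 3.42, 2.02 and 0.866 CPM with STAT3- CM against 5.97, 5.38 and 2.203 CPM with STAT3+ CM (log2 fold change of 1.08 ± 0.47 SE, unadjusted p = 0.0463), where STAT3+ CM replicate 3 lay between STAT3- CM replicates 1 and 2. Oas3, which prefers long double-stranded RNA, stood at 14.5, 14.7 and 16.7 CPM with STAT3- CM against 25.7, 14.2 and 14.9 CPM with STAT3+ CM (log2 fold change of 0.26 ± 0.22 SE). In Oas3 only STAT3+ CM replicate 1 stood apart, and without it the value was -0.067. Oas1a and Oasl1 had 0.63 ± 0.37 SE and 0.37 ± 0.33 SE.

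The ISG15 system attaches a ubiquitin-like protein to others. Isg15, the modifier itself, stood at 5.19, 3.62 and 1.73 CPM with STAT3- CM against 9.08, 8.41 and 3.11 CPM with STAT3+ CM (log2 fold change of 0.95 ± 0.45 SE), and replicate 3 of each group lay below STAT3- CM replicate 2. Usp18, which removes ISG15 and restrains the interferon receptor, stood at 8.19, 7.13 and 8.55 CPM with STAT3- CM against 17.9, 10.7 and 7.60 CPM with STAT3+ CM (log2 fold change of 0.59 ± 0.28 SE). There only STAT3+ CM replicates 1 and 2 lay above STAT3- CM, and STAT3- CM replicate 3 was the highest of its group. Trim25, a ubiquitin ligase that acts on the sensor RIG-I, stood at 63.9, 67.2 and 63.96 CPM with STAT3- CM against 67.4, 62.7 and 67.5 CPM with STAT3+ CM (log2 fold change of 0.02 ± 0.11 SE, and -0.02 when scaled by library totals only). Herc6, the ligase for ISG15 in mice, had means of 15.2 ± 2.19 and 15.0 ± 0.18 CPM (SD, n = 3) with STAT3- and STAT3+ CM (log2 fold change of -0.02 ± 0.15 SE). Trim25 was the least variable of the 46 genes, 1.08-fold from the lowest to the highest library, where Isg15 had 5.24-fold.

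Sensors of nucleic acid went both ways, 3 of 5 on the positive side at a median of 0.26. Ifih1, the RNA sensor MDA5, stood at 33.0, 26.1 and 18.9 CPM with STAT3- CM against 15.5, 19.6 and 22.2 CPM with STAT3+ CM (log2 fold change of -0.44 ± 0.21 SE, unadjusted p = 0.0612, adjusted p = 0.989 by edgeR). It was lowest in STAT3+ CM replicate 1, the library in which 31 other genes of the list were highest, and its groups overlapped. Over the alternatives that left out 1 library its value ran from -0.63 to -0.24. Zbp1, which senses Z-form nucleic acid and can start cell death, stood at 51.9, 37.3 and 28.5 CPM with STAT3- CM against 73.6, 62.7 and 33.7 CPM with STAT3+ CM (log2 fold change of 0.53 ± 0.29 SE). Its lowest libraries were replicate 3 of each group, and the groups overlapped. Dhx58, the MDA5 cofactor LGP2, had 0.26 ± 0.21 SE and the helicase gene Ddx60 0.49 ± 0.32 SE. Eif2ak2, the RNA-activated kinase PKR that halts translation, had means of 26.7 ± 0.68 and 25.7 ± 4.54 CPM (SD, n = 3, STAT3- and STAT3+ CM, log2 fold change of -0.06 ± 0.15 SE).

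Among direct effectors 6 of 7 lay above 0, at a median of 0.28. Rsad2 (viperin), which makes a chain-terminating nucleotide, stood at 0.751, 0.405 and 0.368 CPM with STAT3- CM against 1.54, 1.10 and 0.487 CPM with STAT3+ CM (log2 fold change of 1.00 ± 0.47 SE, unadjusted p = 0.059), high in STAT3+ CM replicates 1 and 2 alone. Its neighbour Cmpk2, a nucleotide kinase gene, had 0.12 ± 0.37 SE. Samhd1, which breaks down deoxynucleotides, was the most abundant of the 46 in CPM, at 261, 226 and 248 CPM with STAT3- CM against 382, 280.5 and 231 CPM with STAT3+ CM (log2 fold change of 0.28 ± 0.18 SE). Bst2 (tetherin), which holds budding virus at the cell surface, stood at 85.9, 91.5 and 82.2 CPM with STAT3- CM against 100.5, 112 and 88.3 CPM with STAT3+ CM (log2 fold change of 0.21 ± 0.13 SE). In both, STAT3+ CM replicate 3 lay within the range of STAT3- CM. Mx1, a dynamin-like GTPase that is defective in many inbred mouse strains, stood at 6.73, 6.15 and 2.45 CPM with STAT3- CM against 2.91, 4.08 and 4.13 CPM with STAT3+ CM (log2 fold change of -0.46 ± 0.34 SE). It was high in STAT3- CM replicates 1 and 2, lowest in STAT3- CM replicate 3, and overlapped between the groups. Mx2 had 0.38 ± 0.30 SE and the exonuclease gene Isg20 0.51 ± 0.37 SE.

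**Figure D3:**
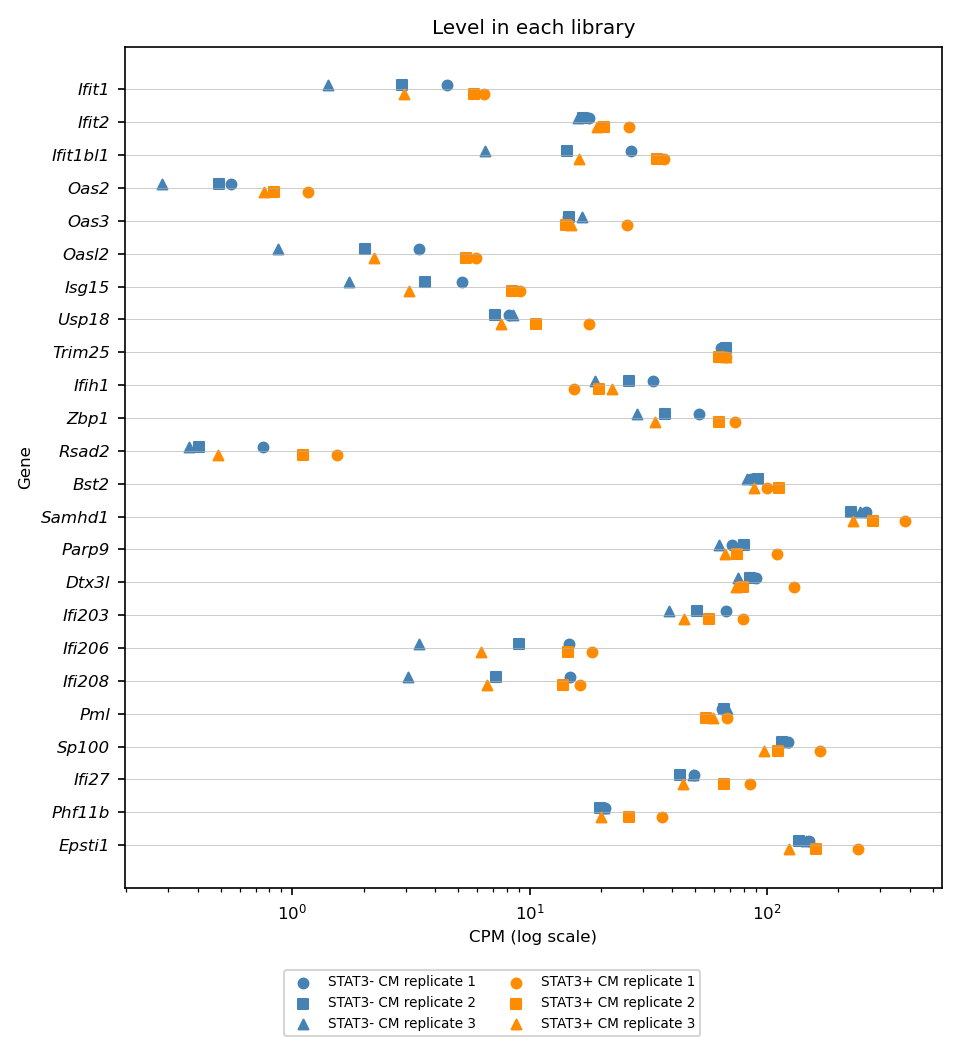
CPM (log scale) of 24 genes, up to 3 from each role group (smallest p-values and highest CPM), with STAT3- CM in blue above the line and STAT3+ CM in orange below it, 1 symbol per replicate number. The groups are apart in Ifit2 and Oas2, and in Isg15 and Oasl2 replicate 3 of each group stands to the left.

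Parp9 and its partner Dtx3l form a complex of ADP-ribosylation and ubiquitin ligation, and lie close together in the gene order with Parp14. Parp9 stood at 71.6, 80.2 and 62.7 CPM with STAT3- CM against 110.3, 74.8 and 66.8 CPM with STAT3+ CM (log2 fold change of 0.23 ± 0.19 SE) and Dtx3l at 90.0, 85.0 and 75.2 CPM with STAT3- CM against 129.7, 79.1 and 74.0 CPM with STAT3+ CM (log2 fold change of 0.18 ± 0.20 SE). In both, STAT3+ CM replicate 1 was the highest library and the other 5 overlapped. Without STAT3+ CM replicate 1 the values were -0.014 and -0.12. Parp14 and Parp12, antiviral ADP-ribosyltransferases, had -0.01 ± 0.18 SE and 0.13 ± 0.37 SE.

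The PYHIN genes encode DNA-binding proteins of the Ifi200 family. Ifi208 stood at 14.8, 7.24 and 3.08 CPM with STAT3- CM against 16.3, 13.8 and 6.61 CPM with STAT3+ CM (log2 fold change of 0.54 ± 0.49 SE). Ifi206 stood at 14.7, 9.03 and 3.42 CPM with STAT3- CM against 18.4, 14.5 and 6.25 CPM with STAT3+ CM (log2 fold change of 0.52 ± 0.48 SE), and its longest transcript shares 92.2% of 1369 aligned bases with that of Ifi208, so reads may be split between them. Both genes were highest in STAT3+ CM replicate 1 and lowest in STAT3- CM replicate 3, by 5.37-fold in Ifi206. Ifi203, the most abundant of the 3, stood at 67.3, 50.5 and 38.6 CPM with STAT3- CM against 79.6, 57.2 and 44.6 CPM with STAT3+ CM (log2 fold change of 0.21 ± 0.24 SE). Among the genes of nuclear bodies, Pml, their scaffold, stood at 64.9, 66.1 and 68.0 CPM with STAT3- CM against 67.9, 55.3 and 59.5 CPM with STAT3+ CM (log2 fold change of -0.12 ± 0.12 SE), and Sp100 at 123, 116 and 119 CPM with STAT3- CM against 168, 111 and 97.2 CPM with STAT3+ CM (log2 fold change of 0.07 ± 0.19 SE). Pml varied little, and in Sp100 STAT3+ CM held both the highest and the lowest library.

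Of the 11 other genes of the list 10 had positive values, with a median of 0.30. Ifi27 stood at 49.5, 43.0 and 48.8 CPM with STAT3- CM against 84.5, 65.8 and 44.1 CPM with STAT3+ CM (log2 fold change of 0.46 ± 0.21 SE, unadjusted p = 0.0497, adjusted p = 0.989 by edgeR), high in STAT3+ CM replicates 1 and 2 and overlapping in replicate 3. Phf11b, of a family of zinc-finger genes, stood at 20.8, 19.8 and 20.6 CPM with STAT3- CM against 36.0, 26.2 and 20.0 CPM with STAT3+ CM (log2 fold change of 0.42 ± 0.20 SE). Epsti1, the most abundant of these 11, stood at 151, 136 and 146 CPM with STAT3- CM against 242, 161 and 124 CPM with STAT3+ CM (log2 fold change of 0.28 ± 0.21 SE), with STAT3+ CM replicates 1 and 2 above STAT3- CM and replicate 3 below it, and without STAT3+ CM replicate 1 its value was -0.018. Lgals3bp, a secreted glycoprotein that binds galectin-3, stood at 58.0, 57.7 and 43.2 CPM with STAT3- CM against 61.9, 67.9 and 65.5 CPM with STAT3+ CM (log2 fold change of 0.30 ± 0.14 SE), and its groups did not overlap. Rtp4, a chaperone of receptors, stood at 13.5, 6.45 and 2.56 CPM with STAT3- CM against 15.7, 17.2 and 6.21 CPM with STAT3+ CM (log2 fold change of 0.79 ± 0.53 SE), from the lowest to the highest library 6.75-fold. Ifi44 was near the detection floor, with 11, 6 and 2 counts with STAT3- CM against 21, 15 and 7 with STAT3+ CM. Its log2 fold change of 1.13 ± 0.62 SE was the largest of the 46 and rests on those counts. Xaf1, Ifi35, Trim30a and Slfn5 had 0.30, 0.14, 0.20 and 0.29, and Tor3a -0.13.

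The role groups shared the order of the libraries to different degrees. In STAT3- CM replicate 3 the IFIT genes had a median of -1.56 and the PYHIN genes of -1.47 from the gene means on the log2 scale, against -0.34 in the PARP and DTX3L group and 0.04 in the pair of nuclear body genes. In STAT3+ CM replicate 1 the medians ran from 0.29 (nuclear body genes) to 0.87 (PYHIN genes). In STAT3+ CM replicate 3 all 9 role groups had medians below 0, from -0.43 to -0.06.

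**Figure D4:**
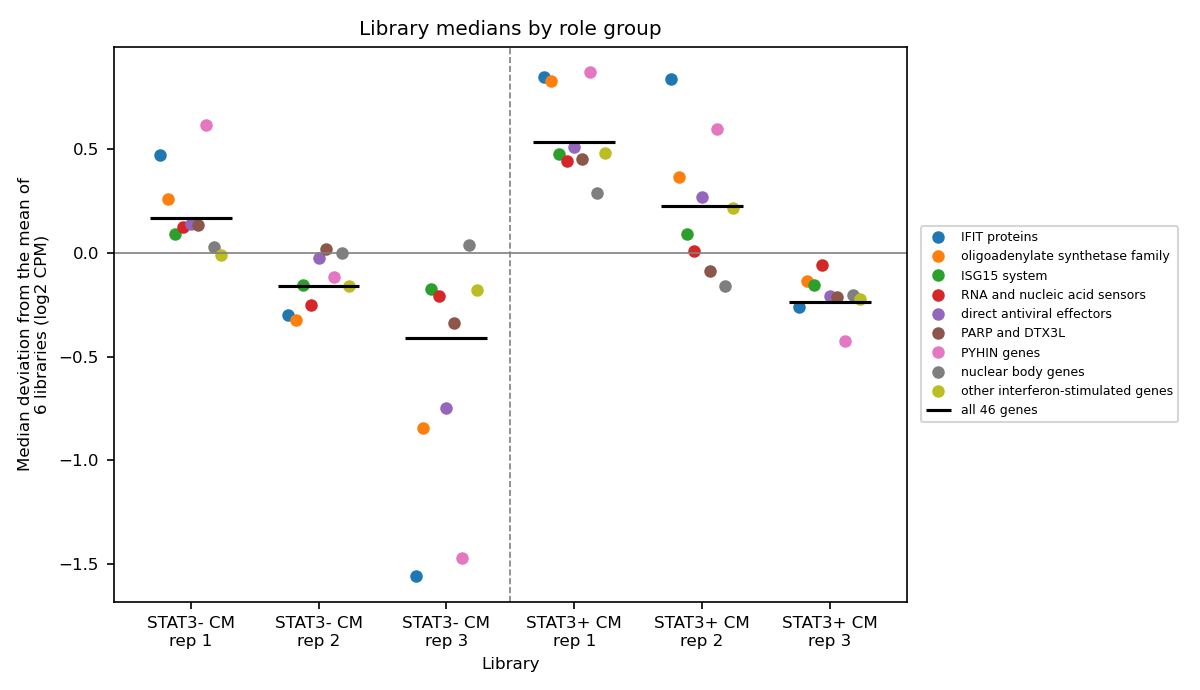
Median difference of each role group from the gene means over the 6 libraries (log2 CPM, vertical axis) in each library, as points, with the median of all 46 genes as a black bar. The bars stand at 0.17, -0.16 and -0.41 for STAT3- CM and at 0.54, 0.23 and -0.24 for STAT3+ CM, and the role groups spread most in STAT3- CM replicate 3.

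Spread between libraries was wide for these genes. The highest library was at least 2 times the lowest in 24 of the 46 genes (against 25.2% of all genes), and in 22 of these STAT3- CM replicate 3 was the lowest (3.01% of all genes). The exceptions were Usp18 and Ifih1. Genes with few counts vary more by counting alone, and the part of counting in this spread was not tested. Among the widely spread genes, Ifit1bl1 had 300 to 1665 counts in a library and Rtp4 118 to 718, while Ifi44 had 2 to 21. In mean CPM, 27 of the 46 lay below the median of all tested genes. Of these 27, 20 had a 2-fold spread (46.3% of all genes below that median), and of the 19 above it 4 (4.13%). Levels per kilobase of exon, which allow genes to be compared, spanned a wide range. Bst2 stood at 103 CPM per kilobase, Epsti1 at 69.0, Ifi35 at 42.4, Ifi27 at 38.1 and Samhd1 at 29.6. At the low end Rsad2 stood at 0.179, Oas2 at 0.153 and Ifi44 at 0.037.

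**Figure D5:**
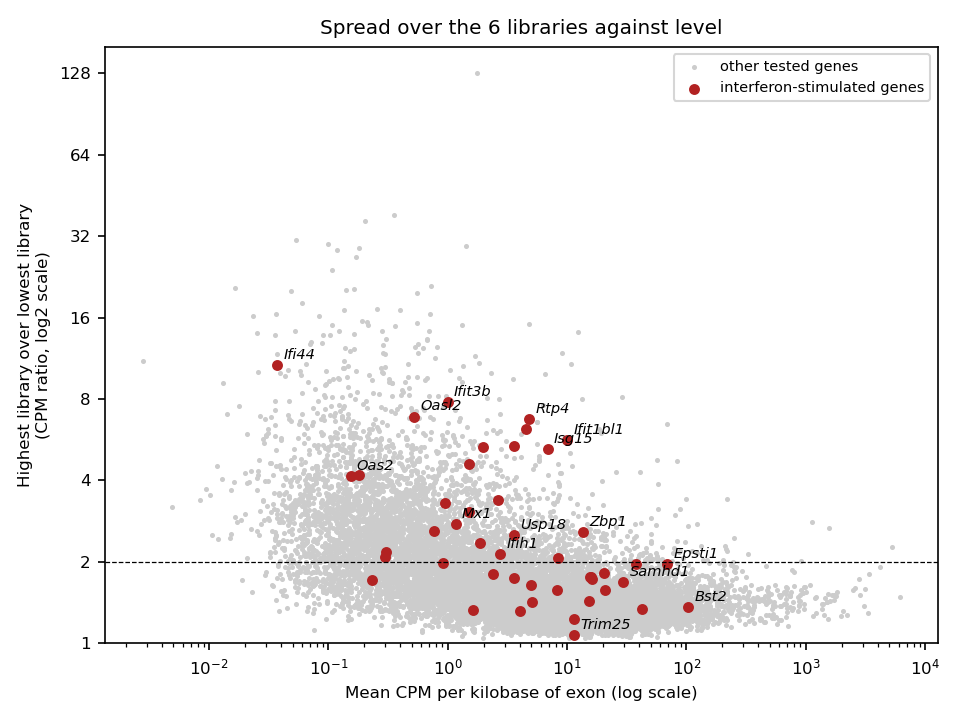
Highest over lowest library (CPM ratio, log2 axis) against the mean CPM per kilobase of exon (log axis) for the 46 genes (red) and the other tested genes (grey). Left out are 349 genes without an exon length and 1 with a library at 0. Above the dashed line at 2 lie 24 of the 46, with Ifit3b at 7.78, and Trim25 lies lowest at 1.08. Ifi44 lies highest of the 46, with 2 counts in its lowest library.

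The spread can be read beside the promoters shown above. Of the 35 tested genes with a promoter window, the 18 with a match to the response element had a median spread of 2.74-fold, and 12 of them reached 2-fold. The 17 without a match had a median of 1.75-fold, and 7 reached 2-fold. Their median log2 fold changes were 0.51 and 0.28. Ifit1, Ifit3, Isg15, Oas1a, Ifi206 and Ifi208 all had a match, and so did Bst2, which varied 1.36-fold, while Oasl2, at 6.89-fold, had none in this window. Ifi44, which had the widest spread of the 46 with 2 counts in its lowest library, had none either. The near copies Ifit3 and Ifit3b, and Ifi206 and Ifi208, count as separate genes among the 18. Spread also varied with level, which was not compared between genes with and without a match. The difference between them was not tested.

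The rest of the interferon pathway showed 0 genes past the threshold by edgeR or DESeq2. Of 21 interferon genes listed, 1 was measured, Ifng (interferon gamma), at 1151, 852 and 742 CPM with STAT3- CM against 1042, 1037 and 991 CPM with STAT3+ CM (log2 fold change of 0.16 ± 0.17 SE), lowest in STAT3- CM replicate 3. Type I interferon genes were not analysed here, and the lowest gene total in the table was 40 counts. Among 8 receptor and kinase genes 4 values were positive. Il10rb, a receptor chain shared by interleukin 10 and interferon lambda, stood at 42.7, 41.5 and 42.0 CPM with STAT3- CM against 65.4, 54.2 and 45.2 CPM with STAT3+ CM (log2 fold change of 0.38 ± 0.15 SE, unadjusted p = 0.0251), and its groups did not overlap. Jak2, the kinase of the interferon gamma receptor, stood at 243, 198 and 214 CPM with STAT3- CM against 147, 162 and 206 CPM with STAT3+ CM (log2 fold change of -0.34 ± 0.15 SE, unadjusted p = 0.0462), with overlapping groups, and Jak1 had -0.09 ± 0.14 SE. Ifnar1 and Ifnar2, the receptor chains of type I interferon, had -0.13 and 0.11. Ifngr1 and Ifngr2, those of interferon gamma, had the largest values of these receptor and kinase genes, both 0.58 ± 0.33 SE. Both were highest in STAT3+ CM replicate 1, and their groups overlapped.

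Of 8 factors that carry the signal 5 were positive, with a median of 0.04. Irf7, itself induced by interferon, stood at 10.0, 6.49 and 3.96 CPM with STAT3- CM against 15.5, 12.2 and 5.60 CPM with STAT3+ CM (log2 fold change of 0.69 ± 0.40 SE). Irf1, a factor induced by interferon gamma, stood at 224, 199 and 142 CPM with STAT3- CM against 258, 264 and 178 CPM with STAT3+ CM (log2 fold change of 0.31 ± 0.20 SE). Both were lowest in STAT3- CM replicate 3, and in both STAT3+ CM replicate 3 stood below STAT3- CM replicate 1. Stat2 and Irf9, factors of the type I interferon response, had -0.06 and 0.03. Of 12 genes listed as negative regulators 6 were positive, with a median of -0.01. Usp18 and Isg15, described above, had the smallest p-values, and the phosphatase gene Ptpn6, the most abundant, had 0.00 ± 0.15 SE, with either sign over the alternatives. Upstream of interferon, 7 of 14 genes for sensing and its adaptors were positive, with a median of -0.01. They include Tlr9 (-0.74 ± 0.50 SE, with 5 to 20 counts in each library) and Sting1 (-0.05 ± 0.15 SE, and 0.091 without STAT3- CM replicate 2).

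Markers of other cells were read in the same libraries. All 7 CD8 T cell markers were measured, at a sum of 2402 to 2629.6 CPM with STAT3- CM against 2425 to 3158 CPM with STAT3+ CM, and 0 of 5 neutrophil and 0 of 4 red cell markers were. In bulk RNA, fewer cells of a type and less RNA per cell cannot be told apart. Of 7 markers of plasmacytoid dendritic cells, the main source of type I interferon among blood cells, 5 were measured, at a sum of 397 to 473 CPM with STAT3- CM against 595 to 633 CPM with STAT3+ CM, without overlap. Most of that sum was Irf8, which activated T cells also express, at 294.95, 311.3 and 381.4 CPM with STAT3- CM against 453, 463.9 and 516 CPM with STAT3+ CM. Ccr9, a chemokine receptor also found on T cells, stood at 10.4, 3.81 and 3.14 CPM with STAT3- CM against 36.3, 26.2 and 24.6 CPM with STAT3+ CM (log2 fold change of 2.33, adjusted p = 0.207 by edgeR). The other measured markers of the list did not share one direction: Tcf4 had -0.19, Ly6d -0.27 and Bst2, itself among the 46 genes, 0.21, and Siglech had no row. Conventional dendritic cell markers, 7 of 11 measured, summed to 132 to 185 CPM with STAT3- CM against 95.3 to 119.8 CPM with STAT3+ CM, also without overlap. Much of that sum was Cd74, at 79.1, 94.2 and 50.7 CPM with STAT3- CM against 36.1, 44.7 and 36.1 CPM with STAT3+ CM (log2 fold change of -0.94, adjusted p = 0.563 by edgeR). H2-Aa had -1.74, H2-Eb1 -0.88 and Zbtb46 -0.61, each without overlap of the groups (adjusted p of 0.534, 0.707 and 0.989 by edgeR). H2-Ab1 had 0.13, Itgax -0.04 and Batf3 -0.14. Monocyte and macrophage markers, 4 of 10 measured, summed to 3.70 to 10.3 CPM with STAT3- CM against 3.63 to 5.60 CPM with STAT3+ CM. Of 6 B cell markers 1 was measured, Cd79b, at 7.40 to 10.7 against 10.9 to 11.8 CPM, without overlap (log2 fold change of 0.39, adjusted p = 0.989 by edgeR). With STAT3- CM against STAT3+ CM, 3 other sums overlapped. They were 9.92 to 24.0 against 12.9 to 18.3 CPM (CD4 T cell), 103 to 137 against 121 to 132 (NK cell) and 13.6 to 16.1 against 8.64 to 15.8 (astrocyte, 2 of 6 measured). Most of the CD4 T cell sum was Zbtb7b, at 6.29, 7.07 and 20.2 against 11.5, 9.30 and 15.1 CPM, with Cd4 itself at 0.660 to 1.62 CPM. Nearly all of the NK cell sum was Eomes, at 133, 129 and 103 against 129, 120 and 123 CPM. Klrb1c, Ncr1 and Klra8 reached at most 2.85, 0.397 and 0.331 CPM. The part of other cells in the values of the interferon-stimulated genes was not tested.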

How the data were processed

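Polyadenylated RNA was sequenced from 500 ng of total RNA per sample with a directional kit, per the labels' protocols. The authors deposited raw counts, 1 whole number per gene and library. Named in the submitters' processing notes, with no order or role, are GRCm39, Cufflinks 2.2.1, SAMtools 0.1.19, Bowtie 1.0.0, TopHat2 2.0.10 and FastQC. Which program counted reads, and with which strand setting, is not given in the sources used here.

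The genes and lists were chosen with earlier results of these data known. Counts were filtered with filterByExpr (162 of 14481 genes left out), scaled by TMM (factors of 0.9605 to 1.0604) and compared over all genes in R 4.3.3 with edgeR 4.0.16 (robust quasi-likelihood test, two-sided, Benjamini-Hochberg adjustment, threshold 0.05). SEs were derived from the log2 fold change and its F statistic. Deviations used log2 CPM with a prior count of 2. In the named genes rule, each role group or pathway list gave its 2 genes with the smallest p and its most abundant gene, and other members were named by value. Library values of Lgals3bp, Rtp4, Mx1, Ifit3 and Ifi44 lie outside that rule and were chosen after they had been seen. The same holds for the values of Ifnar1, Ifnar2, Ifngr1, Ifngr2, Stat2 and Irf9. Exon lengths and transcripts came from GENCODE M21 (GRCm38). Alternatives were other scalings, filters and tests (DESeq2 1.42.0, limma 3.58.1), the replicate number as a block, and each library left out. Leaving out a pair of libraries was chosen after seeing the data. Single markers named with the marker sums were also chosen after their values had been seen. The workflow was tested on simulated data.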

Additional observations from a re-analysis of the deposited data

How the results depend on the processing

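Of the 46 genes 0 passed the threshold under each of 17 alternatives. The genes with positive values numbered 34 to 40 under 10 other scalings, filters and tests (34 of 41 tested at a stricter filter of at least 1 CPM in at least 3 libraries) and 32 to 41 with 1 library left out, and the median log2 fold change ran from 0.25 to 0.32 and from 0.19 to 0.45. Over all genes, calls numbered 0 to 18 with 1 library left out, 48 with DESeq2, 14 with limma-voom with quality weights and 10 without both STAT3- CM replicate 3 and STAT3+ CM replicate 1. Correlations of deviations across genes between libraries of equal replicate number were -0.261, 0.281 and 0.182 for replicates 1, 2 and 3. They do not settle whether equal numbers are paired, and the labels state no pairing. For the 46 genes the library medians fell from replicate 1 to replicate 3 in both groups. With the replicate block 0 of the 46 were called, 40 were positive and the median was 0.32, but 16 of the 46 had an unadjusted p under 0.05, against 4 without it (709 against 521 of all genes), and Ptpn6 was -0.0071. Under the other scalings, filters and tests that count was 1 (library totals only, 487 of all genes) to 9 (DESeq2, 526 of all genes). With quality weights it was 6, against 1136 of all genes. With 1 library left out it ran from 1 to 20, while over all genes it ran from 294 to 1362. Ptpn6 also turned to -0.0351 and Trim25 to -0.0229 when scaled by library totals only, and Ptpn6 to -0.0026 with the stricter filter, -0.0084 with limma-voom and -0.0640 with quality weights. The pair of libraries was chosen after seeing the data as the lowest of STAT3- CM and the highest of STAT3+ CM for these genes, so leaving it out lowers the difference by construction and is no check of stability. Without it the median was 0.071 with 27 positive, and the values were -0.19 for Dtx3l, -0.0080 for Epsti1, -0.21 for Ifi203, -0.21 for Ifi206, -0.12 for Ifi208, -0.00091 for Oas3, -0.10 for Parp9, -0.20 for Sp100 and -0.0090 for Trim25. With 1 library left out, Dtx3l ran from -0.12 to 0.32, Epsti1 from -0.018 to 0.48, Ifi203 from -0.037 to 0.44, Oas3 from -0.067 to 0.41, Parp9 from -0.014 to 0.37, Sp100 from -0.19 to 0.23, Ptpn6 from -0.11 to 0.12, Ifi206 from 0.13 to 1.06, Ifi208 from 0.15 to 1.24, Trim25 from 0.00097 to 0.053 and Sting1 from -0.19 to 0.091. The cause was not tested. Of 575 values of the named genes under alternatives, 550 kept their direction and side of the threshold and 25 reversed, 9 of them without that pair. Depth limits the genes with few counts, such as Ifi44 (2 to 21 counts in a library), Tlr9 (5 to 20) and Oas2 (13 to 53).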
